A study of Mus musculus with 22 samples.

Results

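The TEAD factors and their partners were followed in interscapular brown adipose tissue (BAT) of mice with and without the translational regulator CPEB2. The 10 genes were the 4 TEAD factors (*Tead1*, *Tead2*, *Tead3*, *Tead4*), the co-activators *Yap1* and *Wwtr1*, the YAP targets *Ccn1*, *Ccn2* and *Amotl2*, and the TEAD cofactor *Vgll4*. They were chosen by the level of *Tead1*, which had been seen to be higher in CPEB2-KO BAT, with its family, partners and targets added by name. The comparison in which it was seen is not named, so the *Tead1* values are a description with no test throughout, as are those of all 10 genes for KO against WT under AAV-PRDM16, the comparison in which *Tead1* passed an adjusted threshold. All 10 were found among the 55487 gene identifiers of the count tables and passed the filter on low counts, together with 17869 genes in the untreated and 18899 genes in the AAV cohort. RNA came from 22 mice, 1 library per mouse, on a chow diet with 9% fat. All were described as male, which the transcripts of 6 untreated libraries went against. The untreated cohort held 5 CPEB2-WT and 5 CPEB2-KO mice, 21 to 25 weeks old by their labels, that received no virus. The study's text gives a different age range for mice sequenced without virus and a fast of several hours before their BAT was taken. The AAV cohort held 3 mice in each of 4 groups, CPEB2-WT or CPEB2-KO with AAV-GFP or AAV-PRDM16, injected into the BAT in 30 μl PBS at 16 weeks and collected 9 weeks later, at 25 weeks. The knockout was global, on a C57BL/6 background and from heterozygous crosses, so loss of CPEB2 was not limited to brown adipocytes, and all 12 mice of the AAV cohort, the WT + AAV-GFP mice included, carried a virus.

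TEAD1 to TEAD4 are DNA-binding proteins of 1 family that recognize the same short motif and need a co-activator to switch genes on. YAP, encoded by *Yap1*, and TAZ, encoded by *Wwtr1*, are those co-activators: when the kinases of the Hippo pathway are active, both are phosphorylated and held in the cytoplasm, and when the kinases are silent, both enter the nucleus and bind TEAD. VGLL4 binds TEAD in their place and opposes them. *Ccn1* (CYR61) and *Ccn2* (CTGF) encode secreted matricellular proteins and *Amotl2* a junctional protein that binds YAP in turn. All 3 are widely used as readouts of YAP and TAZ. TEAD1 also takes part in muscle gene expression, and YAP and TAZ have been studied in fat cells as sensors of tension.

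The counts of a library summed to between 61636889 and 143005309 in the AAV cohort and to between 55320927 and 162721202 in the untreated one. *Cpeb2* transcript ran from 10.5 to 14.0 CPM (reads per library scaled to a common total) in the 6 WT libraries of the AAV cohort and from 4.33 to 5.55 CPM in its 6 KO libraries. In the untreated cohort it ran from 7.69 to 14.3 CPM in WT and from 2.10 to 11.7 CPM in KO, and mouse 1 of the KO group held 11.7 CPM, inside the WT range. The untreated groups are therefore described by the labels their libraries carry. Of the 10 untreated libraries, 6 (2 WT and 4 KO) lacked Y-linked transcripts, with at most 1.17 CPM in sum, and held *Xist* at 104 CPM or more, and WT mice 1 and 2 stood apart in how levels followed gene length. Brown adipocyte markers were abundant in every library, with summed levels of 9 genes from 3158 to 12003 CPM.

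The motif that TEAD proteins bind was looked for in the RefSeq promoters (GRCm38.p6, 250 bases before to 50 after a start), as the 6 letters GGAATG or, on the other strand, CATTCC, which do not overlap each other. It stood in 14.66% of the 32851 promoters of the table. Of the members, 7 had an entry and 6 of these held the letters in at least 1 entry (*Tead3*, *Yap1*, *Wwtr1*, *Ccn1*, *Amotl2* and *Vgll4*), *Tead2* did not, and *Tead1*, *Tead4* and *Ccn2* had no entry. The share over the table counts single entries, and the members are counted by gene. *Tead3* and *Wwtr1* had more than 1 entry, so the count of members is not compared with that share. The sequences of 2 YAP targets and of *Vgll4* are shown, since under AAV-PRDM16 the targets were higher and *Vgll4* lower in all KO than in all WT libraries. They are given 5′ to 3′ on the strand of the gene, with the motif in capitals.
*Ccn1*, 250 bases before the start, chr3:145649986-145650235, minus strand: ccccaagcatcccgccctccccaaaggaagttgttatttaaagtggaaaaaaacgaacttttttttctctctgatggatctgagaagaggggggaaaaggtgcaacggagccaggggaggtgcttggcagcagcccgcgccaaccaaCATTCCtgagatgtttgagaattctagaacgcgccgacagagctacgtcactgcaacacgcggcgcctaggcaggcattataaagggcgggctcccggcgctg
*Amotl2*, 30 bases around the motif, chr9:102717727-102717756, plus strand: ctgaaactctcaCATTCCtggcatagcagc
*Vgll4*, 250 bases before the start, chr6:114969204-114969453, minus strand: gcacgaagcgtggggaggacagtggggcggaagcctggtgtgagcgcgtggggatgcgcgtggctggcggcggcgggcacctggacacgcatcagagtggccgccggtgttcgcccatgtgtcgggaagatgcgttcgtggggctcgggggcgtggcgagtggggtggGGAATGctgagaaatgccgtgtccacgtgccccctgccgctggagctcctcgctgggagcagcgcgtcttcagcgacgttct
In *Ccn1* the motif began 103 bases before the RefSeq start, in *Amotl2* 65 bases before it and in *Vgll4* 82 bases before it. The *Amotl2* motif lay in an exon by the GENCODE M21 annotation, which places a start farther upstream. By the same annotation *Vgll4* reaches to chr6:114969994 on the minus strand, so the stretch shown lay inside that gene. The first bases after the RefSeq starts of *Ccn1* and *Vgll4* were not found whole in a GENCODE transcript. Binding was not measured, and the letters mark no site by themselves.

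*Tead1* (ENSMUSG00000055320, GRCm38 chr7:112679318-112906807, plus strand) carried most of the TEAD transcript in the AAV cohort, where its KO and WT levels did not overlap under either virus. Under AAV-GFP, its level was 35.6, 43.0 and 35.7 CPM in the 3 WT mice and 54.9, 57.8 and 59.4 CPM in the 3 KO mice. All KO libraries lay above all WT libraries, and the group means were 38.1 ± 4.29 (SD, n = 3) and 57.4 ± 2.25 CPM (SD, n = 3). The log2 fold change (log2FC) was 0.59 (SE 0.15) and ran from 0.45 to 0.69 over the 23 other settings. In this comparison 13.4% of all 18899 genes did not overlap between the groups, and 0.0529% were called at an adjusted p of 0.05 by the quasi-likelihood test of edgeR.

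Under AAV-PRDM16 its level was 24.6, 31.5 and 28.9 CPM in WT and 61.9, 93.9 and 65.9 CPM in KO, a log2FC of 1.38 (SE 0.16). The lowest of these KO libraries stood above the highest KO library under AAV-GFP. By their means, the 4 AAV groups ranked as WT + AAV-PRDM16 (28.3 ± 3.50 CPM, SD, n = 3), WT + AAV-GFP, KO + AAV-GFP and KO + AAV-PRDM16 (73.9 ± 17.4 CPM, SD, n = 3). No 2 neighbours in this order overlapped. Of all genes, 14.2% did not overlap between the viruses in WT, 13.4% between the genotypes under AAV-GFP and 9.43% between the viruses in KO. Between the genotypes under AAV-PRDM16, 22.8% did not overlap. AAV-PRDM16 went with a lower *Tead1* level in WT, at a log2FC of -0.43 (SE 0.15), and with a higher one in KO, at 0.37 (SE 0.15). The difference of the genotype effect on *Tead1* between the viruses was 0.79 (SE 0.22) on the log2 scale. These *Tead1* values are not tested, since the gene was chosen for its level in KO.

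In the untreated cohort the *Tead1* level was 42.3, 33.9, 27.5, 30.0 and 47.8 CPM in WT and 110, 36.9, 16.6, 33.9 and 10.4 CPM in the libraries labelled KO. The KO libraries held both the highest and the 2 lowest values of the cohort, and the highest was mouse 1, the library with the WT level of *Cpeb2*. The log2FC was 0.20 (SE 0.51). Without KO mouse 1 it was -0.57, and its sign also turned in 3 other settings, so no direction can be given here. KO mouse 1 also held 6303 CPM of summed skeletal muscle markers, and KO mouse 2 held 7111 CPM of them at a *Tead1* level of 36.9 CPM. The part of muscle in the result was not tested beyond a covariate, with which the log2FC was -0.09.

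**Figure D1:**
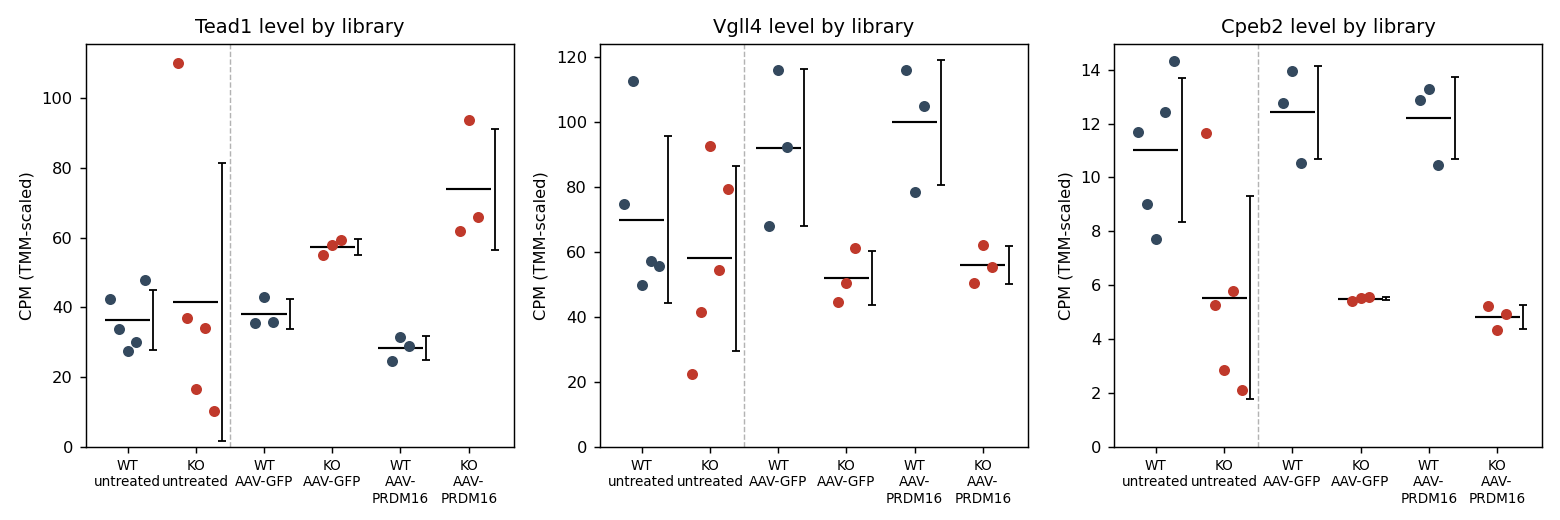
Levels of Tead1, Vgll4 and Cpeb2 (CPM, linear axes from 0) in each of the 22 libraries by group; points are mice in the order of their numbers, lines the group mean and bars its SD, and the dashed line separates the untreated cohort from the AAV cohort. In the AAV cohort the 6 KO libraries sit above the 6 WT libraries for Tead1 and below them for Vgll4 and Cpeb2, while the untreated groups overlap for all 3 genes.

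The other 3 TEAD genes were far less abundant. Per length of their exons (FPKM), the mean levels over the 12 AAV libraries were 3.64 for *Tead1*, 0.743 for *Tead3*, 0.465 for *Tead4* and 0.375 for *Tead2*. The 3 minor genes were counted with 87 to 788 reads in a library of that cohort, so counting error is part of their spread between mice. *Tead2* under AAV-GFP was 1.23, 1.13 and 1.46 CPM in WT and 1.83, 1.88 and 2.13 CPM in KO. These groups did not overlap, and the log2FC was 0.62 (SE 0.26, adjusted p = 0.501, edgeR quasi-likelihood test). Under AAV-PRDM16 the *Tead2* groups overlapped, since KO mouse 2 held 1.49 CPM and the WT mice 1.5 to 1.71 CPM.

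*Tead3* kept within 4.16 to 6.03 CPM in all 12 AAV libraries, with a log2FC of -0.28 (SE 0.17, adjusted p = 0.675) under AAV-GFP and 0.07 (SE 0.17) under AAV-PRDM16. *Tead4* ran from 1.08 to 2.36 CPM, with log2FC of 0.49 (SE 0.28, adjusted p = 0.654) and 0.35 (SE 0.28). Neither gene separated by genotype under either virus. In the untreated cohort the log2FC was 0.47 (SE 0.43) for *Tead2*, 0.49 (SE 0.26) for *Tead3* and 0.63 (SE 0.32) for *Tead4*, with adjusted p of 0.542, 0.345 and 0.334, and all 3 genes overlapped between the groups.

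The share of *Tead1* in the summed FPKM of the 4 TEAD genes is a ratio within a library that no scaling between libraries can move. A trend of levels with gene length that differs between libraries can move it. *Tead1* has 13570 bases of exon, where the other TEAD genes have 3598 to 6714. It was 65.4% ± 6.10 (SD, n = 3) in WT and 72.2% ± 1.44 (SD, n = 3) in KO under AAV-GFP, a difference of 6.73 percentage points that is not tested. WT mouse 2 with 72.5% lay among the KO libraries, whose shares were 71.0% to 73.8%. In the untreated cohort the mean share was 59.6% ± 10.5 (SD, n = 5) in WT and 46.7% ± 21.7 (SD, n = 5) in KO, in which single mice ran from 19.9% to 78.0%. The WT shares there ran from 45.7% to 70.7%. WT mice 1 and 2, which stood apart in how levels followed gene length, held 66.8% and 62.9%. Under AAV-PRDM16 the shares were 55% to 61.1% in WT and 70.6% to 81.4% in KO.

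**Figure D2:**
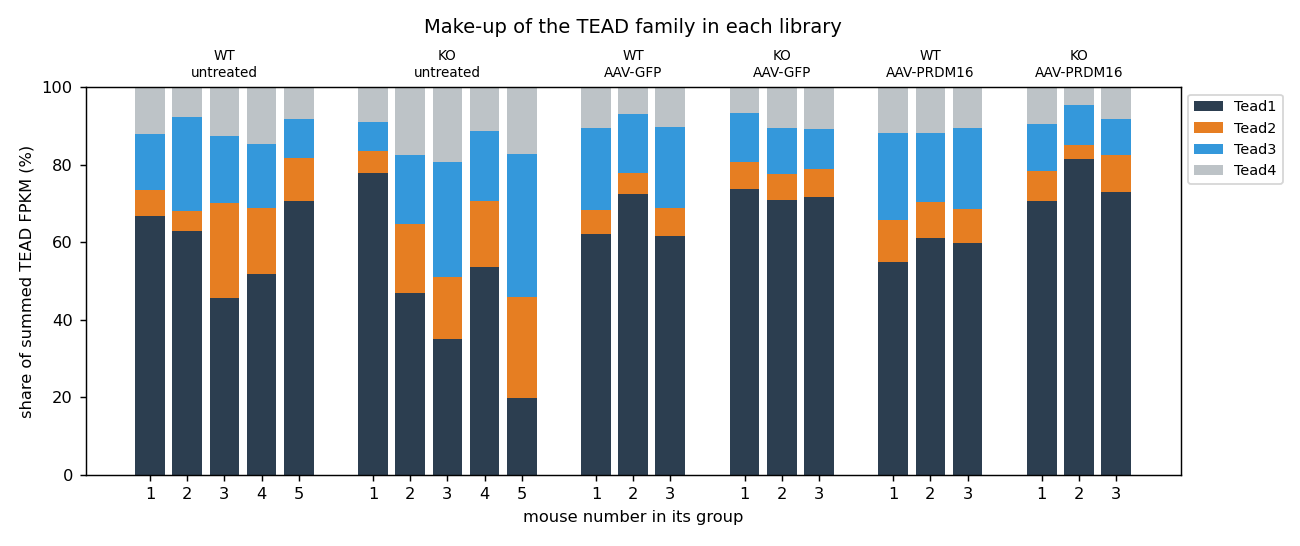
Share of each of the 4 TEAD genes in their summed FPKM (percent, stacked to 100) in each library, with the mouse number in its group on the horizontal axis. Tead1 takes the largest share in 21 of the 22 libraries and holds 70.6% to 81.4% in the 6 KO libraries of the AAV cohort, while untreated KO mice run from 19.9% to 78.0%.

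The co-activators differed less by genotype. *Wwtr1*, which encodes TAZ, was the more abundant per length, with mean FPKM of 10.9 in the AAV and 10.6 in the untreated cohort, where *Yap1* had 4.22 and 3.37. The *Wwtr1* level under AAV-GFP was 53.1, 40.2 and 46.8 CPM in WT and 51.9, 54.8 and 54.4 CPM in KO. These overlapped, with a log2FC of 0.20 (SE 0.11, adjusted p = 0.647). Under AAV-PRDM16 the levels were 48.5, 46.6 and 48.2 CPM in WT and 60.7, 52.9 and 66.3 CPM in KO, which did not overlap, with a log2FC of 0.33 (SE 0.11).

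*Yap1* overlapped between genotypes under both viruses. Its level was 32.4 to 48.6 CPM in WT and 37.8 to 42.3 CPM in KO under AAV-GFP, and 33.5 to 37.8 CPM in WT and 34.8 to 51.2 CPM in KO under AAV-PRDM16. The log2FC was 0.05 (SE 0.16, adjusted p = 0.967) and 0.25 (SE 0.16). Untreated, it was -0.26 (SE 0.34, adjusted p = 0.678) for *Yap1* and -0.11 (SE 0.25, adjusted p = 0.826) for *Wwtr1*. The share of *Wwtr1* in the summed FPKM of both genes was 70.2% ± 2.12 in WT and 72.1% ± 1.68 in KO under AAV-GFP (SD, n = 3 each; exact permutation test, two-sided, p = 0.4, adjusted p = 0.533 over 4 share comparisons, those of *Tead1* included; the smallest p that 3 mice against 3 allow is 0.1) and 75.1% ± 3.09 and 77.3% ± 8.09 untreated (SD, n = 5 each; exact permutation test, two-sided, p = 0.611, adjusted p = 0.611).

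Among the targets, *Ccn2* under AAV-GFP was 2.36, 1.33 and 0.914 CPM in WT and 2.03, 4.45 and 3.04 CPM in KO. KO mouse 1 lay below WT mouse 1, so the groups overlapped. The log2FC was 1.05 (SE 0.42, adjusted p = 0.476), which made *Ccn2* the 1 member past the wider threshold of the study's methods, at least 2-fold with an adjusted p of at most 0.5, a threshold that 1.8% of all genes passed. It did not pass that threshold in 6 of 11 settings that changed the model or the scaling and in 8 of 12 that left out 1 library, among them WT + AAV-GFP mice 2 and 3 (adjusted p of 0.652 and 0.812) and KO + AAV-GFP mice 2 and 3 (0.704 and 0.620). Under AAV-PRDM16 the level was 0.632, 1.56 and 1.24 CPM in WT and 2.79, 3.02 and 1.89 CPM in KO, without overlap, with a log2FC of 1.16 (SE 0.42). Its exons overlap those of *Gm15270* on the opposite strand by 665 bases, and the strand setting of the counting is not given in the sources used here, so reads of the 2 genes may be mixed.

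*Ccn1* under AAV-GFP was 9.00, 4.79 and 8.98 CPM in WT and 6.67, 14.3 and 12.5 CPM in KO. KO mouse 1 again lay among the WT values, and the log2FC was 0.56 (SE 0.30, adjusted p = 0.623). Under AAV-PRDM16 the level was 5.45, 6.15 and 4.91 CPM in WT and 9.98, 7.73 and 12.9 CPM in KO, without overlap, with a log2FC of 0.89 (SE 0.30).

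*Amotl2* under AAV-GFP was 78.0, 42.8 and 67.9 CPM in WT and 76.6, 89.3 and 82.3 CPM in KO, with WT mouse 1 inside the KO range and a log2FC of 0.40 (SE 0.22, adjusted p = 0.652). Under AAV-PRDM16 it was 38.2, 62.8 and 47.3 CPM in WT and 84.1, 73.5 and 107 CPM in KO, without overlap, with a log2FC of 0.83 (SE 0.23). The targets had a positive log2FC under both viruses. Their groups were separate only under AAV-PRDM16, where 22.8% of all genes did not overlap, beside 13.4% under AAV-GFP, so nothing is read from that. Whether the genotype effect differed between the viruses was tested by the interaction below.

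Untreated, the spread of *Ccn1* between mice was wide. Its level was 8.77, 22.2, 41.5, 281 and 49.8 CPM in WT and 121, 408, 48.9, 91.5 and 35.7 CPM in KO, a 46.5-fold range over the cohort against a 2.98-fold range over the 12 AAV libraries. The log2FC of 0.80 (SE 0.87, adjusted p = 0.613) became -0.09 without KO mouse 2. *Ccn2* was highest in the same mice of each group, WT mouse 4 with 8.34 CPM and KO mouse 2 with 15.9 CPM, and its log2FC was 0.82 (SE 0.57, adjusted p = 0.438). *Amotl2* had a log2FC of -0.28 (SE 0.48, adjusted p = 0.756) and turned positive without WT mice 1 and 2, at 0.17. All 3 targets overlapped between the untreated groups.

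**Figure D3:**
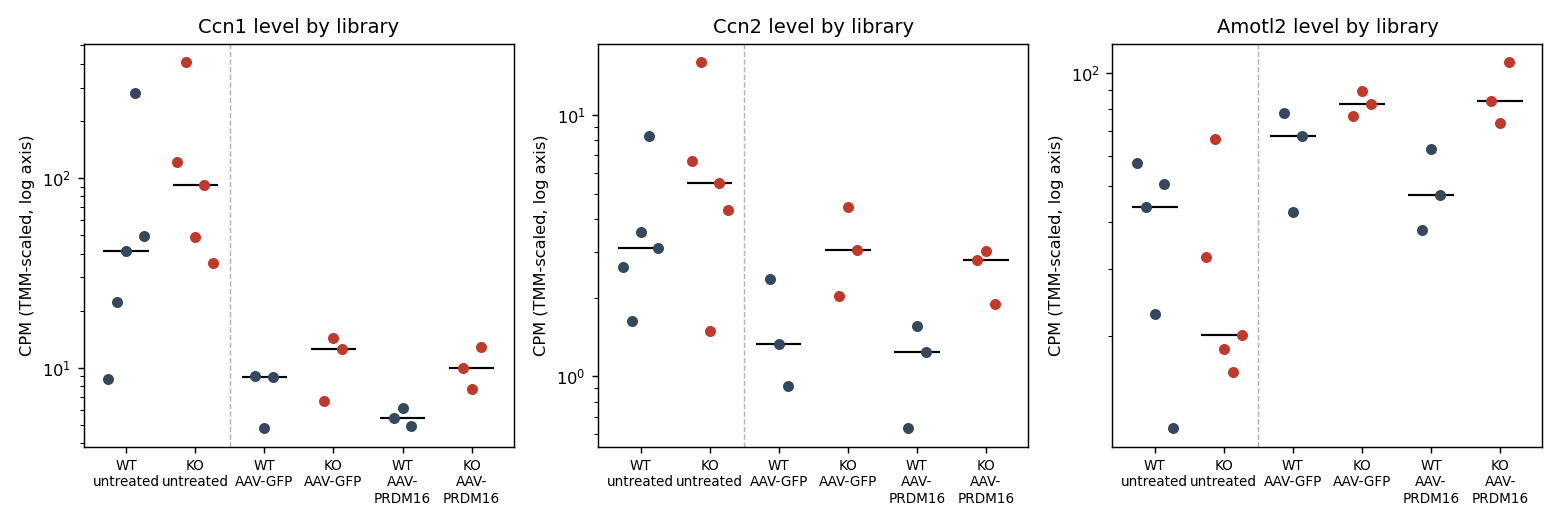
Levels of Ccn1, Ccn2 and Amotl2 (CPM, log axes) in each of the 22 libraries by group; points are mice in the order of their numbers and lines the group median. Under AAV-PRDM16 the 3 KO libraries lie above the 3 WT libraries in each panel, under AAV-GFP the groups overlap, and untreated Ccn1 runs from 8.77 to 408 CPM.

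*Vgll4* differed by genotype in the opposite direction to *Tead1* in the AAV cohort and was the most abundant member there per length, with a mean FPKM of 13.9. Under AAV-GFP its level was 68.0, 116 and 92.4 CPM in WT and 44.5, 50.5 and 61.1 CPM in KO. All KO libraries lay below all WT libraries, with a log2FC of -0.82 (SE 0.20). The adjusted p was 0.231 by edgeR's quasi-likelihood test and 0.00913 by DESeq2, and ran from 0.00913 to 0.546 over 23 other settings, in which the log2FC kept between -1.09 and -0.62.

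Under AAV-PRDM16 the *Vgll4* level was 116, 78.6 and 105 CPM in WT and 50.4, 62.1 and 55.5 CPM in KO, again without overlap, with a log2FC of -0.84 (SE 0.20). The genotype effect differed between the viruses by -0.01 (SE 0.28, adjusted p = 1). In the untreated cohort the level was 74.7, 113, 49.7, 57.2 and 55.8 CPM in WT and 22.3, 41.4, 92.7, 54.5 and 79.3 CPM in KO. These overlapped widely, with a log2FC of -0.27 (SE 0.37, adjusted p = 0.692), which turned to 0.16 without WT mice 1 and 2. The lowest *Vgll4* level of the 10 untreated libraries was that of KO mouse 1, which held the highest *Tead1* level.

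**Figure D4:**
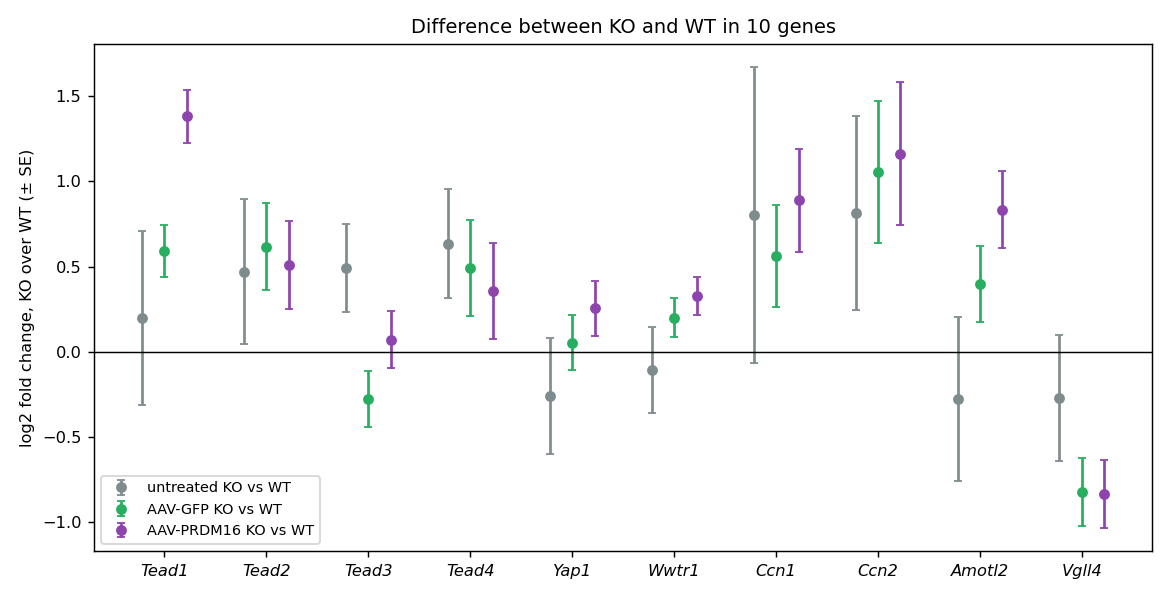
Log2 fold change of KO over WT with its standard error for the 10 genes in the untreated mice (n = 5 per group) and under AAV-GFP and AAV-PRDM16 (n = 3 per group). Tead1 (0.59 and 1.38) and Ccn2 (1.05 and 1.16) lie above 0 and Vgll4 (-0.82 and -0.84) below it under both viruses, and the untreated estimates carry the widest errors, up to 0.87 for Ccn1.

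Counted over the 9 genes other than *Tead1*, 0 passed an adjusted p of 0.05 in the untreated comparison by edgeR, DESeq2 or limma-voom, with 0 at an unadjusted p under 0.05. In that comparison 0% of all genes passed at 0.05, 15.9% had an unadjusted p under 0.05, 10.8% passed the wider threshold, which 0 of the 9 did, and 1.4% did not overlap. The median log2FC of the 10 members was 0.33, beside 0.04 over all genes tested. Under AAV-GFP, 0 of the 9 passed at 0.05 by edgeR or limma-voom and 1 by DESeq2 (*Vgll4*), which called 243 genes in all there. At an unadjusted p under 0.05 there were 3 of the 9 (*Tead2*, *Ccn2* and *Vgll4*), beside 9.18% of all genes. Of the 9, *Tead2* and *Vgll4* did not overlap, beside 13.4% of all genes. The median of the 10 members was 0.44, beside 0.01 over all genes. The members' medians include *Tead1*, whose level chose the list, so nothing is read from them. The members were picked with results of these libraries known, and the KO mice under the 2 viruses are different animals.

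Under AAV-PRDM16, 6 members did not overlap, 5 of them higher (*Tead1*, *Wwtr1*, *Ccn1*, *Ccn2*, *Amotl2*) and 1 lower (*Vgll4*), in a comparison where 22.8% of all genes did not overlap, 0.0476% passed at 0.05 and 4.85% passed the wider threshold. Since *Tead1* passed the adjusted threshold in this comparison, nothing is read from the count. For the effect of the virus, the 9 members other than *Tead1* were tested. With AAV-PRDM16 against AAV-GFP in WT, 0 of the 9 passed at 0.05, and 0 had an unadjusted p under 0.05, with log2FC from -0.46 for *Ccn1* to 0.36 for *Tead2*. In KO, 0 passed and 0 had an unadjusted p under 0.05, with log2FC from -0.31 for *Ccn2* to 0.25 for *Tead2*. The interaction of genotype and virus gave 0 and 0 again, with estimates from -0.14 for *Tead4* to 0.44 for *Amotl2* (SE 0.32). DESeq2 and limma-voom called 0 members in these 3 comparisons. Over all genes, 0% passed at 0.05 in each, 7.29%, 6.41% and 3.19% had an unadjusted p under 0.05, 1.46%, 2.15% and 0% passed the wider threshold, and 14.2% in WT and 9.43% in KO did not overlap between the viruses.

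Of the genes that rank closest to *Tead1*, by Pearson's r of log2 CPM over the 12 AAV libraries and leaving aside provisional names, the first were *Ttll7* (0.95), *Cblb* (0.94), *Cd163* (0.93), *Fkbp5* (0.93) and *Map3k6* (0.92). Among the members, r with *Tead1* was 0.77 for *Ccn2*, 0.70 for *Amotl2* and -0.73 for *Vgll4*, and ran from -0.08 to 0.58 for the other 6. Over the 10 untreated libraries the closest genes were *Asph* (0.97), *Tmcc1* (0.96), *Rnf115* (0.94), *Slc25a30* (0.94) and *Riok2* (0.93), and among the members r was 0.82 for *Yap1*, 0.62 for *Wwtr1*, -0.65 for *Vgll4* and -0.62 for *Tead3*, and ran from -0.27 to 0.29 for the other 5. *Asph* had r of 0.92 in the AAV cohort, while *Tmcc1* had -0.19 and *Map3k6* -0.02 in the cohort that did not rank it. These values describe the libraries, which share their groups, and the untreated ones lean on KO mouse 1.

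Of 17 upstream Hippo genes, which encode the kinases MST and LATS with their partners, 0 were called at 0.05 in any of the 6 comparisons by edgeR. Under AAV-GFP their median log2FC was 0.10 with 0 at an unadjusted p under 0.05. The most abundant, the kinase genes *Map4k4* and *Taok1* and the tumor suppressor *Nf2*, had log2FC of -0.23, 0.21 and -0.03. Untreated, 14 of the 17 had a negative log2FC, with a median of -0.57 beside 0.04 over all genes, and 7 had an unadjusted p under 0.05, all lower, in a comparison where 15.9% of all genes did, among them *Taok1* (-1.09, adjusted p = 0.305) and *Nf2* (-0.70, adjusted p = 0.311). WT mice 1 and 2 held the highest *Nf2* levels of that cohort, 125 and 111 CPM, where the other 8 libraries held 35.4 to 64.7 CPM.

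Of 9 other partners of TEAD, YAP and TAZ, 7 were tested in the AAV cohort and 8 untreated, with 0 called at 0.05 by edgeR. *Amotl1*, the most abundant and a relative of *Amotl2*, had a log2FC of -0.10 under AAV-GFP and 0.23 under AAV-PRDM16. *Ptpn14*, a phosphatase that binds YAP, had -0.13 and 0.23, and -0.93 untreated (adjusted p = 0.308). Of 19 further genes of a YAP and TAZ target signature, 17 were tested in the AAV cohort, with 0 called at 0.05 and medians of 0.09 under AAV-GFP and 0.11 under AAV-PRDM16, against 0.01 over all genes in both. Under AAV-GFP 3 of the 17 had an unadjusted p under 0.05, all higher, beside 9.18% of all genes. The most abundant were *Ptpn14*, *Ccdc80*, *F3* and *Lats2*, and the last 3 had log2FC of 0.26, -0.10 and -0.07 under AAV-GFP. The medians of the 10 members were 0.44 under AAV-GFP and 0.43 under AAV-PRDM16. They include *Tead1*, whose level chose the list, and the members were listed with results known, so nothing is read from the difference to the signature.

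Marker genes of other cell types moved with genotype in the same libraries. Of 5 macrophage markers, 5 were higher in KO under AAV-GFP past 2-fold at an adjusted p of at most 0.5, which 1.8% of all genes passed. Their summed levels were 24.9 to 45.2 CPM in WT and 52.7 to 135 CPM in KO. Under AAV-PRDM16 the sums were 18.2 to 23.1 CPM in WT and 34.2 to 41.6 CPM in KO, and all 5 had a positive log2FC. Of 7 fibroblast and preadipocyte markers, 7 had a positive log2FC under both viruses, with medians of 0.56 and 0.63. Their sums separated only under AAV-PRDM16, at 125 to 173 CPM in WT and 221 to 240 CPM in KO. Their mean log2 CPM separated under both viruses, under AAV-GFP narrowly, at 3.19 to 3.70 in WT and 3.71 to 4.23 in KO. The sums of 7 smooth muscle and pericyte markers separated under both viruses, at 430 to 533 CPM in WT and 562 to 640 CPM in KO under AAV-GFP and at 401 to 488 and 514 to 648 CPM under AAV-PRDM16. In the untreated cohort the sums separated the other way, at 496 to 575 CPM in WT and 305 to 466 CPM in KO. Most of each AAV sum was *Rgs5*, at 306 to 387 CPM in WT and 434 to 499 CPM in KO under AAV-GFP. Untreated, *Rgs5* was 342 to 413 CPM in WT and 103 to 311 CPM in KO. A positive log2FC was held by 4 of the 7 markers under AAV-GFP, 6 under AAV-PRDM16 and 4 untreated. Their mean log2 CPM overlapped between genotypes under AAV-GFP and untreated, and separated under AAV-PRDM16. White adipocyte sums (4 markers) were 27.8 to 44.0 CPM in WT and 85.9 to 142 CPM in KO under AAV-GFP and overlapped in the other comparisons of genotype. Under AAV-GFP most of each sum was *Lep*, at 21.3 to 34.9 CPM in WT and 78.1 to 128 CPM in KO. *Retn*, *Nnat* and *Agt* overlapped there, and so did the mean log2 CPM of the 4 markers, at 0.53 to 1.59 in WT and 1.29 to 2.00 in KO. Brown adipocyte sums were lower in KO under AAV-PRDM16, at 4747 to 6381 CPM in WT and 3375 to 4317 CPM in KO, and overlapped under AAV-GFP and untreated. Sums of the endothelial, T cell, B cell and Schwann cell markers overlapped between genotypes in each comparison. The mean log2 CPM of the endothelial markers separated under AAV-PRDM16, at 5.27 to 5.40 in WT and 5.43 to 5.84 in KO. That of the Schwann cell markers separated there the other way, at 1.58 to 1.90 in WT and 0.72 to 1.39 in KO. For both lists it overlapped in the other comparisons of genotype.

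With the macrophage score in the model, chosen after seeing these values, the log2FC under AAV-GFP was 0.55 for *Tead1*, 1.43 for *Ccn2* (adjusted p = 0.702) and -1.09 for *Vgll4* (adjusted p = 0.325). In bulk tissue, more cells of a type and more RNA per cell cannot be told apart, and the part of these cells in the results was not tested beyond that.

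Of the 12 skeletal muscle markers, 10 were tested in the AAV cohort. Under AAV-GFP 9 of the 10 had a positive log2FC, the direction of *Tead1*. Of them, 4 (*Acta1*, *Myh4*, *Myh1* and *Ckm*) were higher in KO past the wider threshold, which 1.8% of all genes passed. *Acta1*, the actin of skeletal muscle, was 0.0717 to 0.358 CPM in WT and 0.0718 to 13.1 CPM in KO (adjusted p = 0.451, edgeR quasi-likelihood test), while *Myh4*, *Myh1* and *Ckm* were at 0 in all 3 WT + AAV-GFP libraries, so that their fitted log2FC is no measure of size. In KO + AAV-GFP, *Myh4* and *Ckm* were also at 0 in 2 of 3 libraries and *Myh1* in 1 of 3. Under AAV-PRDM16 9 of the 10 had a negative log2FC, opposite to *Tead1*. Of them, 3 (*Myh1*, *Atp2a1* and *Ttn*) were past the wider threshold, which 4.85% of all genes passed. *Myh4*, *Myh1* and *Ckm* were at 0 in 2 of 3 WT and in 2 of 3 KO libraries. The summed level of the 12 markers, most of it *Myl1*, was 28.4 to 39.3 CPM in 10 of the 12 libraries. It was raised in KO + AAV-GFP mouse 1 (137 CPM) and WT + AAV-PRDM16 mouse 2 (63.9 CPM). With the muscle score in the model the *Tead1* log2FC under AAV-GFP was 0.59, and without KO mouse 1 it was 0.62. Untreated, the muscle sum ran from 44.5 to 7111 CPM, and the part of muscle in the levels there was not tested beyond the covariate, with which the *Tead1* log2FC was -0.09.

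**Figure D5:**
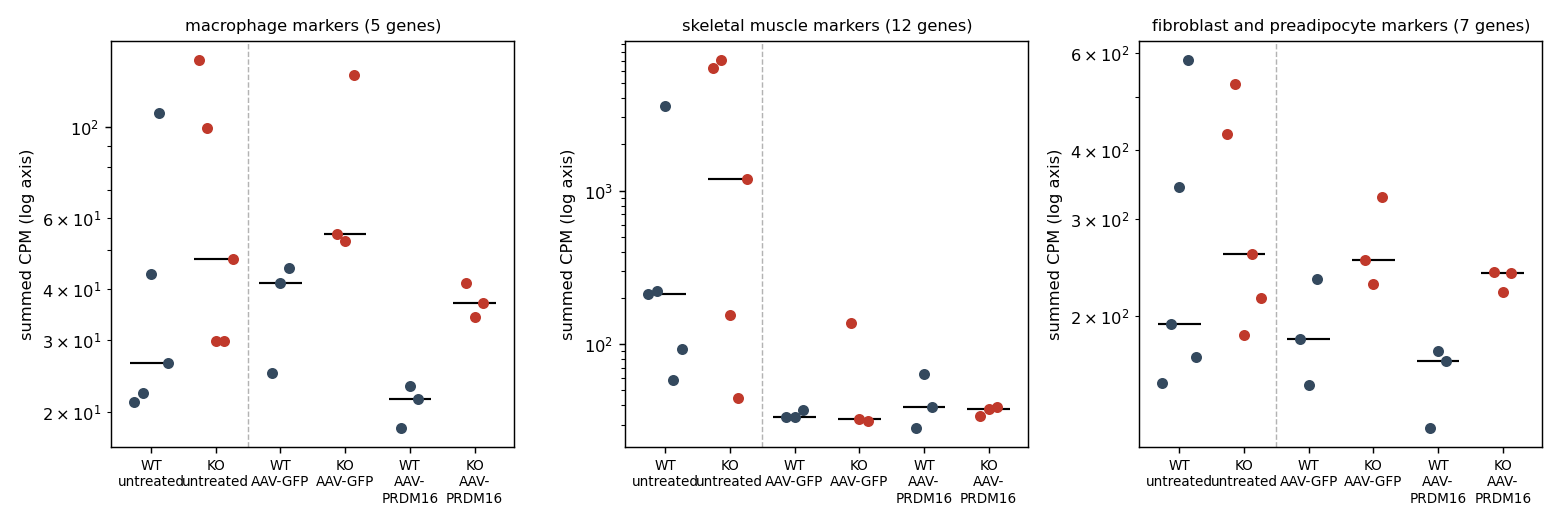
Summed CPM (log axes) of the macrophage, skeletal muscle and fibroblast markers in each of the 22 libraries by group; points are mice in the order of their numbers and lines the group median. Macrophage sums separate by genotype under both viruses (24.9 to 45.2 against 52.7 to 135 CPM under AAV-GFP), while muscle sums are raised in single libraries and reach 7111 CPM in untreated KO mouse 2.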

How the data were processed

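BAT RNA was sequenced as mRNA libraries. The authors deposited whole-number counts of reads per Ensembl gene, not normalized, as 1 table per cohort. The submitters' processing notes name bcl2fastq 2.20, Trimmomatic 0.36, HISAT2 and GRCm38.p6; the counting tool, annotation release, strand setting and handling of duplicates are not given in the sources used here. Groups and mouse numbers came from the sample titles. The 10 genes, the pathway lists and the marker lists were chosen with earlier results of these data known. Of 55487 identifiers, 55227 matched GENCODE M21.

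Counts were filtered by filterByExpr, scaled by TMM and tested by edgeR 4.0.16 (quasi-likelihood test, two-sided, Benjamini-Hochberg over all genes tested) in R 4.3.3, with 10 libraries in the untreated and 12 in the AAV fit. Calls used an adjusted p of 0.05, or 2-fold with an adjusted p of at most 0.5. The scripts were tested on simulated data. Levels are TMM-scaled CPM, and FPKM uses the union of exons, so levels of the cohorts, scaled separately, are not compared. Intervals between replicates measure the spread between mice. Marker scores are mean log2 CPM with a prior count of 2. Alternatives were DESeq2 1.42.0, limma-voom (limma 3.58.1), RLE scaling, other filters, GC and length splines, marker and Y-linked covariates, the replicate block and leaving out libraries; the macrophage covariate was added after seeing the data. Each member is named in every comparison, with the 4 most abundant genes of each wider list, every gene of them called at 0.05, and the 5 genes closest to *Tead1* in each cohort. No library was counted as a duplicate, because the counts of any 2 mice of a group disagreed beyond sampling error.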

Additional observations from a re-analysis of the deposited data

Results flagged for a closer look

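Of the 20 untreated groups of 5 mice examined over the 10 genes, 4 held a mouse far from the others by Dixon's test at 95%. The test was run on CPM, not on log2 CPM. It flags about 1 in 20 groups of independent, normally spread values. The levels need not be spread so, and the 20 groups come from the same 10 mice, so nothing is read from the count of 4. In the KO group, mouse 1 held 110 CPM of *Tead1*, where the next highest was 36.9 CPM. For *Ccn1*, WT mouse 4 held 281 CPM, next to 49.8 CPM, and KO mouse 2 held 408 CPM, next to 121 CPM. For *Ccn2*, WT mouse 4 held 8.34 CPM, next to 3.55 CPM. The AAV groups of 3 mice were not examined in this way, and 0 of the 9 members other than *Tead1* passed the interaction test of genotype and virus.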

How the results depend on the processing

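The untreated comparison called 0 members at 0.05 under all 20 alternatives. The virus comparisons and the interaction called 0 under each of theirs. Members past the wider threshold in untreated mice numbered 0 to 2 when 1 library was left out. Under AAV-GFP, DESeq2 called 2 members at 0.05 (*Vgll4* and *Tead1*, whose call is no test) and all other alternatives 0. DESeq2 called 243 genes in all there, where the main fit called 10. Past the wider threshold, the count of 1 became 0 without a filter on low counts, with the GC and length trend removed, with the muscle score, with the replicate block and with only the groups compared, and ran from 0 to 2 when 1 library was left out. Under AAV-PRDM16, described without a test, the count at 0.05 was 1 among 9 genes called in all. It became 3 with DESeq2, which called 619 of 18899 genes, and 3 with limma-voom, which called 545. With the T and B cell score it was 2 among 27 genes called. It was 0 with the macrophage score or only the groups compared, which called 0 and 2 genes. It ran from 0 to 1 when 1 library was left out. Past the wider threshold it ran from 1 to 3. The 4 shares kept their direction in every alternative. The replicate numbers do not pair the mice, since same-numbered libraries correlated at -0.293 to 0.154 after removing group means. The block changed no call of a member at 0.05. Over all genes it called 1 under AAV-GFP and 5 under AAV-PRDM16, where the main fit called 10 and 9. The cause of these changes was not tested.

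Log2FC values that changed sign, all uncalled in both settings, were these. With limma-voom, the log2FC became -0.19 for *Tead1* in untreated mice, -0.022 for *Amotl2* for the virus in KO and -0.26 for *Ccn2* for the interaction. With removal of the GC and length trend, the log2FC became 0.056 for *Yap1*, 0.24 for *Wwtr1* in untreated mice, -0.068 for *Yap1* under AAV-GFP, 0.010 for *Tead4*, 0.021 for *Ccn1* for the virus in KO and 0.0012 for *Vgll4* for the interaction. With the skeletal muscle score, the log2FC became -0.094 for *Tead1* in untreated mice and -0.027 for *Vgll4* for the virus in KO. With the replicate block, the log2FC became -0.23 for *Tead1* in untreated mice. With WT mice 1 and 2 left out, the log2FC became 0.17 for *Amotl2* and 0.16 for *Vgll4* in untreated mice. With Y-linked transcripts as a covariate, the log2FC became 0.36 for *Amotl2* in untreated mice. With the T and B cell score, the log2FC became -0.078 for *Wwtr1* for the virus in WT, -0.088 for *Tead3*, -0.13 for *Yap1*, -0.17 for *Amotl2* for the virus in KO, -0.055 for *Ccn2* and 0.026 for *Vgll4* for the interaction. With the macrophage score, the log2FC became -0.0057 for *Wwtr1* for the virus in WT, -2.9e-04 for *Tead3*, 0.10 for *Tead4*, -0.057 for *Yap1* for the virus in KO, -0.034 for *Ccn2* and 0.046 for *Vgll4* for the interaction. With 1 library left out at a time, the log2FC in untreated mice ran from -0.57 to 0.44 for *Tead1*, from -0.093 to 2.21 for *Ccn1* and from -0.31 to 0.014 for *Wwtr1*. In the same way, that under AAV-GFP ran from -0.062 to 0.25 for *Yap1*. In the same way, that under AAV-PRDM16 ran from -0.049 to 0.19 for *Tead3*. In the same way, that for the virus in WT ran from -0.25 to 0.063 for *Yap1*, from -0.70 to 0.0300 for *Ccn2*, from -0.062 to 0.32 for *Vgll4*, from -0.12 to 0.12 for *Tead4* and from -0.066 to 0.13 for *Wwtr1*. In the same way, that for the virus in KO ran from -0.32 to 0.066 for *Tead4*, from -0.39 to 0.082 for *Ccn1*, from -0.54 to 0.016 for *Ccn2*, from -0.097 to 0.19 for *Yap1* and from -0.0696 to 0.20 for *Amotl2*. In the same way, that for the interaction ran from -0.34 to 0.43 for *Ccn2*, from -0.21 to 0.17 for *Vgll4*, from -0.37 to 0.029 for *Tead4* and from -0.35 to 0.14 for *Tead2*. The fewest counts of a member in a library were 54 (*Ccn2*) in the AAV and 95 (*Tead4*) in the untreated cohort, so counting error adds to the spread of the least abundant members; in simulated untreated data, 39.4% of genes changed 4-fold and 4.17% of those changed 2-fold were recovered, and 65.7% and 38.1% under AAV-GFP.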

Other observations

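Some genes of the wider lists, picked after their values were seen, separated by genotype under AAV-GFP without passing the adjusted threshold. In the 3 wider lists, 2 of 17, 1 of 7 and 3 of 17 tested genes did not overlap there, beside 13.4% of all genes. Nothing is read from their number. *Myof*, a YAP target of the signature that encodes a membrane repair protein, was 3.74, 5.24 and 4.16 CPM in WT and 7.54, 6.68 and 17.2 CPM in KO under AAV-GFP, with a log2FC of 1.26 (SE 0.30, adjusted p = 0.232, edgeR quasi-likelihood test). Under AAV-PRDM16 it was 3.09, 2.89 and 3.05 CPM in WT and 5.64, 4.67 and 6.55 CPM in KO. The receptor kinase gene *Axl* was 13.1, 12.7 and 14.7 CPM in WT and 16.1, 18.0 and 28.6 CPM in KO under AAV-GFP, with a log2FC of 0.63 (SE 0.18, adjusted p = 0.323). Under AAV-PRDM16 it was 8.97 to 10.7 CPM in WT and 13.4 to 15.8 CPM in KO. KO + AAV-GFP mouse 3, the highest library for both genes, also held the highest macrophage marker sum of the AAV cohort, 135 CPM, and the part of these cells was not tested. *Vgll3*, a relative of *Vgll4*, was 0.84, 0.58 and 1.26 CPM in WT and 1.36, 1.44 and 2.81 CPM in KO under AAV-GFP, with a log2FC of 1.07 (SE 0.35, adjusted p = 0.388). Under AAV-PRDM16 its groups overlapped, at 0.866 to 1.22 CPM in WT and 1.14 to 1.52 CPM in KO, with a log2FC of 0.27 (SE 0.35).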
